A study of Mus musculus with 9 samples.

Results

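Collagens are secreted proteins of the extracellular matrix in which chains with glycine at regular positions wind around each other into a stiff rod. The 44 genes described here are all rows of the deposited table of mouse ovary whose symbol has the form of a collagen chain (Col, a type number, a and a chain number), out of 22544 rows. By type number 11 chains were grouped as fibrillar, 8 as basement membrane, 6 as type VI, 9 as FACIT (fibril-associated collagens with interrupted helices) and 10 as other. Fibrillar collagens assemble into the cables that give stroma its tensile strength, and in the ovary they fill the cortex, the theca around follicles and the outer capsule. Type IV collagen forms the sheet of basement membranes beneath granulosa cells and blood vessels, type VI collagen forms beaded filaments near cells, and FACIT collagens sit on the surface of fibrils.

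RNA came from 9 ovary libraries in 3 groups of 3. The HBOT group received, per the design text, CTX together with hyperbaric oxygen (HBO in the column names). CTX is commonly short for cyclophosphamide, a chemotherapy drug that damages DNA and is known to deplete follicles, though the labels do not spell it out. The NC group, whose labels name neither agent, was the control. The labels give no genotype, strain, age, dose or schedule, and do not say whether each library came from its own animal, so a p-value reflects the variation among libraries, which may be technical. The series title concerns protection of the ovary from CTX by hyperbaric oxygen.

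Levels are FPKM, fragment numbers scaled by transcript length and by library total, so that genes can be compared. A log2 fold change is taken on the log2(FPKM + 1) scale, where changes of low genes appear too small, with its standard error (SE) from limma. A gene was tested if it had at least 1 FPKM in at least 3 libraries, and called at a Benjamini-Hochberg adjusted p under 0.05 over the 13338 genes tested. FPKM summed to 394046 to 420058 per library and 12764 to 13101 genes reached 1 FPKM, while read depth is unknown. All 7 listed oocyte markers and all 8 listed granulosa cell markers passed the filter in these ovary libraries. HBOT replicate 2 stood apart from the rest, with 1637 genes differing by over 1 log2 unit from the average of the rest, against 173 to 347 genes for each other library. CTX replicate 1 carried the most adipocyte marker RNA, as given with the marker lists.

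Of the 44 chains 36 were tested. Below the filter were Col2a1 (fibrillar), Col9a1, Col19a1 and Col22a1 (FACIT), and Col10a1, Col17a1, Col25a1 and Col28a1 (other). All but Col17a1, a transmembrane collagen of epithelia, stayed under 1 FPKM in every library, and Col17a1 reached 1.85 FPKM in HBOT replicate 2 only. The cartilage collagens Col2a1 and Col10a1 were at most 0.11 and 0.094 FPKM. Col14a1 would not have passed the filter without NC, nor Col24a1 without HBOT, the groups in which they were highest, so the counts below do not stand for all members.

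Promoter sequences are shown for 5 chains on which the results turn, from RefSeq on GRCm38.p6, 250 bases before to 50 after an annotated start, written 5′ to 3′ on the strand of the gene. Col4a1 and Col4a2 encode the main chains of type IV collagen, are neighbours transcribed away from each other, and their windows (chr8:11312777-11313076, minus strand, and chr8:11312555-11312854, plus strand) share 78 bases, in capitals.
Col4a1: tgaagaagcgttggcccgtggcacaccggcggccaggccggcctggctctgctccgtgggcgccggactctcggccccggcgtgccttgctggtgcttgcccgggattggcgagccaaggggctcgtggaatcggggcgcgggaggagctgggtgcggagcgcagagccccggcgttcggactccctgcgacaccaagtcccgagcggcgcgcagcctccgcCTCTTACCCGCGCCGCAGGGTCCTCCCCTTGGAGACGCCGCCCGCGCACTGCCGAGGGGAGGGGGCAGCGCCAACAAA
Col4a2: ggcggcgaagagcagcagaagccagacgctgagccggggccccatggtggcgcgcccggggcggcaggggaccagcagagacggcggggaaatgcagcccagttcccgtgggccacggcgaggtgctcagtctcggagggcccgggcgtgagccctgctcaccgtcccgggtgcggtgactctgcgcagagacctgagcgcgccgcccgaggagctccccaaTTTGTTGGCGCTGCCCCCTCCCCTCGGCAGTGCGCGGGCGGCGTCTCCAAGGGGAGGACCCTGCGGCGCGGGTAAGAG
The fibrillar chains Col3a1 (chr1:45311288-45311587, plus strand) and Col1a2 (chr6:4505368-4505667, plus strand) were the most abundant of their class with Col1a1, and Col7a1 (chr9:108953336-108953635, plus strand), the anchoring fibril collagen, had the smallest p of all chains. In these 3 windows the capitals mark a CCAAT box, a TATAAA box or a GGGCGG box on either strand.
Col3a1: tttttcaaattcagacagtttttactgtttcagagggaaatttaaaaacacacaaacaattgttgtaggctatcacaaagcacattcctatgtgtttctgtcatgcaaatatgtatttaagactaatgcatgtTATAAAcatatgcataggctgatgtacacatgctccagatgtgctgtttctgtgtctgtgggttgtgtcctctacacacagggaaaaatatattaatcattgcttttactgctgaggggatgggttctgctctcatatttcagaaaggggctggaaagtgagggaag
Col1a2: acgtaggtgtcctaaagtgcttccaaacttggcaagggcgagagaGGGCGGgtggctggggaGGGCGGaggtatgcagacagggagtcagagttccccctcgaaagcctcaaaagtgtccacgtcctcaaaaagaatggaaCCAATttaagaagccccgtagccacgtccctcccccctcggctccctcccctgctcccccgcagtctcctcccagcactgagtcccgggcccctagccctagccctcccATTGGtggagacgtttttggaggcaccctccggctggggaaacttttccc
Col7a1: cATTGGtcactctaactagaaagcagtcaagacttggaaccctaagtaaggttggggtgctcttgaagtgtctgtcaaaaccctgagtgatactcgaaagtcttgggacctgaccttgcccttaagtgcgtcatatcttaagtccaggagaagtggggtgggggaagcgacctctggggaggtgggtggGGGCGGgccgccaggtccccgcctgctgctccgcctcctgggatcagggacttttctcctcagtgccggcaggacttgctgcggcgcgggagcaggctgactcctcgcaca
RefSeq windows were found for 35 of the 44 chains, 38 windows in all. GGGCGG, the GC box, was in 60.5% of the collagen windows against 35.7% of all 32851 windows, CCAAT in 34.2% against 37.4%, TATAAA in 13.2% against 13.6%, and TGANTCA, the AP-1 motif, in 2.63% against 7.81%, both strands counted. The Col1a2 window held 2 CCAAT and 2 GGGCGG matches, and that of Col3a1 held 1 TATAAA and neither of the other motifs. These matches describe letters, and no binding was measured.

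Transcripts of 7 chains made up 75.5% to 82.5% of the summed collagen FPKM in each library. In order of their mean over the 9 libraries they were Col1a2 (199.95 FPKM), Col3a1 (194), Col4a1 (135), Col6a1 (121), Col1a1 (90.9), Col4a2 (84.3) and Col6a2 (74.5). Neighbours in this order overlapped across libraries, as Col1a2 spanned 143 to 254 FPKM and Col3a1 125 to 331 FPKM. In at least 1 library 20 chains reached 10 FPKM, and 11 of the 36 tested chains had a mean under 2 FPKM. By class, fibrillar chains made up 38.9% to 54.3% of the collagen FPKM over the libraries, basement membrane chains 19.6% to 36.7%, type VI 16.3% to 27% and FACIT chains 3.65% to 6.65%. The highest share of basement membrane chains and the lowest of fibrillar chains were both in HBOT replicate 2.

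**Figure D1:**
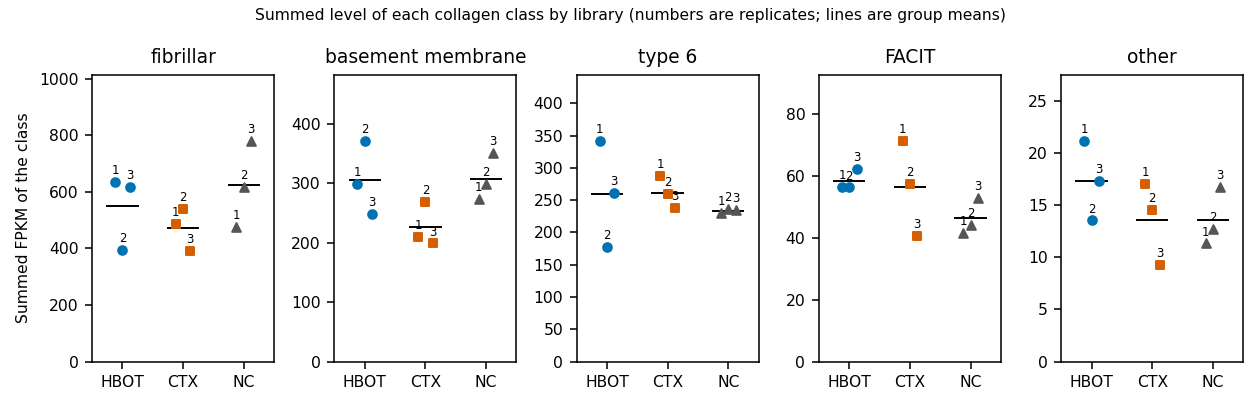
Summed FPKM of each collagen class (y axis, from 0) in the HBOT, CTX and NC libraries; points are libraries numbered by replicate and lines are group means. CTX basement membrane sums (199 to 269 FPKM) lay below those of NC (274 to 352), and within HBOT replicate 2 was highest for basement membrane and lowest for fibrillar and type VI chains.

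CTX was set against NC to see how collagen transcripts differed after the drug. Fibrillar and basement membrane chains had mostly lower values in CTX, while the type VI median was near that of all genes. In whole tissue, fewer cells of a type and less RNA per cell cannot be told apart. Of 10 tested fibrillar chains 7 were lower (median log2 fold change -0.35), of 8 basement membrane chains 6 (median -0.32), of 6 type VI chains 1 (median 0.061), of 6 FACIT chains 2 (median 0.10) and of 6 others 3 (median 0.012). Over all 36 chains 19 were lower, with a median of -0.045, against 40.5% lower, 59.5% higher and a median of 0.046 over all 13338 genes. By limma 0 of 36 chains were called (smallest adjusted p = 0.492), as were 0% of all genes. At an unadjusted p under 0.05, 1 chain was higher and 4 were lower, against 5.24% and 2.74% of all genes.

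The HBOT to CTX comparison asks what hyperbaric oxygen added. Values were higher in HBOT for 27 of 36 chains (median 0.18), against 38.4% of all genes higher and 61.6% lower (median -0.067). Among fibrillar chains 9 of 10 were higher (median 0.25), among basement membrane chains 6 of 8 (0.30), type VI 4 of 6 (0.098), FACIT 3 of 6 (0.12) and others 5 of 6 (0.0999). The medians of type VI, FACIT and other chains turned sign with 1 library left out, to -0.17 for type VI without HBOT replicate 1 and, without CTX replicate 3, to -0.13 for FACIT and -0.022 for other chains. No chain was called by limma (0 of 36, smallest adjusted p = 0.667), against 0% of all genes. At an unadjusted p under 0.05, 4 were higher and 1 was lower, against 2.41% and 3.67% of all genes. This comparison shares the CTX libraries with the one before, so low values in CTX enter both. The chain lower at an unadjusted p under 0.05, here and between HBOT and NC, was Col14a1, which passed the filter through NC. Between HBOT and NC, 23 chains were higher and 13 lower (median 0.10, against -0.015 for all genes with 47.6% of them higher and 52.4% lower), 0 were called (smallest adjusted p = 0.241; background 0%), and at an unadjusted p under 0.05, 4 were higher and 1 was lower, against 6.22% and 5.65% of all genes.

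**Figure D2:**
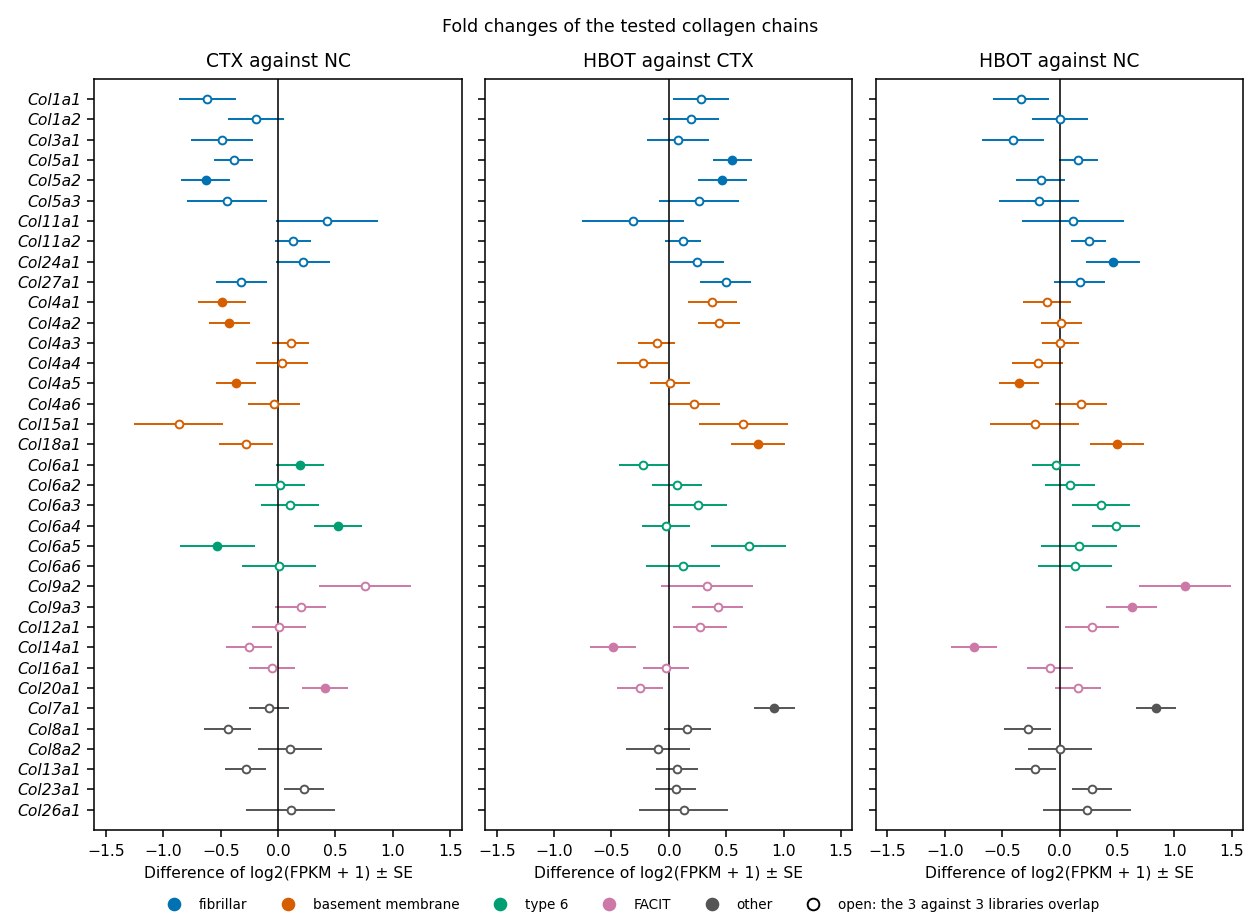
Difference of log2(FPKM + 1) with its SE (x axis) for the 36 tested chains, coloured by class, in 3 comparisons; filled points mark chains whose 3 against 3 libraries do not overlap. In CTX against NC most fibrillar and basement membrane points lie left of 0, and in HBOT against CTX 27 of 36 lie right of it.

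In each comparison the libraries separated completely for a minority of the chains. In CTX against NC the 3 CTX libraries lay below the 3 NC libraries for 5 chains (Col4a1, Col4a2, Col4a5, Col5a2 and Col6a5; 13.9%, against 7.8% of all genes) and above for 3 (Col6a1, Col6a4 and Col20a1; 8.33%, against 13.2%). HBOT lay above CTX for 4 chains (Col5a1, Col5a2, Col7a1 and Col18a1; 11.1%, against 3.76%) and below for 1 (Col14a1; 2.78%, against 6.44%). For HBOT against NC 5 chains were above (Col7a1, Col9a2, Col9a3, Col18a1 and Col24a1; 13.9%, against 10.9%) and 2 below (Col4a5 and Col14a1; 5.56%, against 9.6%). Among the chains named, Col24a1 passed the filter through HBOT and Col14a1 through NC. HBOT replicate 2, which held the lowest value for 12 of the 36 chains, was left out after the data were seen. The chains above CTX then numbered 13 of 35 (37.1%, against 9.14%), among them Col1a1, Col1a2, Col3a1 and Col15a1, and those below it 2 (5.71%, against 9.6%). Those above NC numbered 13 of 35 (37.1%, against 23.5%), among them Col6a1 to Col6a4. With CTX replicate 1 left out instead, 6 of 36 were above CTX (16.7%, against 10%). Fewer libraries separate more easily. Leaving out a library that was low for many of these chains also favours counts above CTX and NC. No such count was made without HBOT replicate 1, which held the highest value for 13 chains. These counts are therefore a description.

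The fibrillar class was led by type I and type III collagen. Col1a1, the α1 chain of type I collagen, was at 97.4, 63.5 and 105 FPKM in HBOT, 70.9, 89.8 and 56.8 in CTX, and 84.8, 125 and 125 in NC. CTX replicate 2 was above NC replicate 1, so CTX and NC overlapped (log2 fold change -0.62, SE 0.25, limma adjusted p = 0.595). Its partner Col1a2, the α2 chain, was at 254, 148 and 229.8 FPKM in HBOT, 200.3, 201 and 143 in CTX, and 163, 208 and 253 in NC. The groups overlapped widely for Col1a2 (CTX against NC -0.19, SE 0.24, HBOT against CTX 0.19, SE 0.24). Col3a1, which forms the fine fibrils of type III collagen, was at 207, 125 and 202 FPKM in HBOT, 159, 185 and 149 in CTX, and 167, 221 and 331 in NC. NC replicate 3 was the highest and HBOT replicate 2 the lowest of all libraries for Col3a1 (CTX against NC -0.49, SE 0.27, limma adjusted p = 0.728). Its difference between HBOT and CTX was 0.082 (SE 0.27), and between HBOT and NC -0.41 (SE 0.27).

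Type V collagen, which nucleates fibrils and limits their width, had lower means in CTX than in both other groups. Col5a1 was at 25.8, 25.2 and 23.5 FPKM in HBOT, 18.3, 19.8 and 12.6 in CTX, and 18.8, 24 and 23.8 in NC. HBOT and CTX did not overlap for Col5a1, and HBOT replicate 2 lay within its own group (HBOT against CTX 0.55, SE 0.17, limma adjusted p = 0.710; CTX against NC -0.39, SE 0.17). Col5a2 was at 15.2, 12.3 and 13.5 FPKM in HBOT, 9.09, 11.8 and 8.28 in CTX, and 11.8, 14.5 and 21.3 in NC. The highest CTX library was just under the lowest HBOT and NC libraries for Col5a2, which had the smallest p of the chains lower in CTX (-0.63, SE 0.21, limma adjusted p = 0.492). The third chain, Col5a3, averaged 1.27 ± 1.15 FPKM in HBOT, 0.754 ± 0.371 in CTX and 1.37 ± 0.363 in NC (SD, n = 3 each).

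The remaining fibrillar chains went different ways. Col27a1, a fibrillar collagen of cartilage and other tissues, averaged 19.3 ± 6.12 FPKM in HBOT, 13 ± 2.07 in CTX and 16.6 ± 2.5 in NC (SD, n = 3 each), and Col11a1, which copolymerises with other fibrillar chains, 9.76 ± 5.73, 11.1 ± 4.05 and 7.75 ± 1.17 FPKM in the same order of groups. Col11a1 ranged from 3.31 FPKM in HBOT replicate 2 to 15.5 in CTX replicate 2. Col11a2 and Col24a1 were low, with means between 0.507 and 1.84 FPKM in every group.

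In the basement membrane class the 2 main chains of type IV collagen went together. Col4a1 was at 134, 187 and 110.0 FPKM in HBOT, 97.7, 130.2 and 97.3 in CTX, and 132, 145 and 180.2 in NC. Col4a2 was at 88.2, 116 and 75.5 FPKM in HBOT, 61.1, 79.7 and 63.2 in CTX, and 81.4, 87.6 and 105 in NC. For both chains all CTX libraries lay below all NC libraries and HBOT replicate 2 was the highest of the 9 (CTX against NC -0.49, SE 0.21, for Col4a1 and -0.42, SE 0.18, for Col4a2, limma adjusted p = 0.617 and 0.613; HBOT against CTX 0.38, SE 0.21, and 0.44, SE 0.18). The ratio of Col4a1 to Col4a2 stayed between 1.46 and 1.71 in the 9 libraries, the narrowest of 15 ratios computed (highest over lowest 1.17). These are the 2 genes whose start windows share the 78 bases printed above. Whether the shared stretch bears on the ratio was not tested, and reads at these starts cannot be divided without strand.

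The minor type IV chains gave other values. Col4a5, which joins with the α3 and α4 chains, was at 12.5, 8.02 and 11.5 FPKM in HBOT, 11.3, 11.3 and 8.75 in CTX, and 12.6, 14.1 and 14.4 in NC. Every HBOT and CTX library was below every NC library for Col4a5 (HBOT against NC -0.35, SE 0.17, limma adjusted p = 0.449; CTX against NC -0.36, SE 0.17). Col4a3, Col4a4 and Col4a6 averaged 1.77, 5.56 and 4.70 FPKM in HBOT, 1.97, 6.59 and 3.99 in CTX, and 1.74, 6.39 and 4.01 in NC, with the groups overlapping and log2 fold changes between -0.034 and 0.11 in CTX against NC. Col4a1 exceeded Col4a5 by a factor of 8.64 to 12.5 in 8 libraries and of 23.3 in HBOT replicate 2.

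Types XV and XVIII carry a collagen core with attached sugar chains and anchor basement membranes to the matrix beside them. Col18a1, whose end fragment is endostatin, was at 26.4, 43.1 and 21.6 FPKM in HBOT, 15.3, 20.5 and 14.5 in CTX, and 19.8, 19.9 and 21.3 in NC. All HBOT libraries lay above all CTX and all NC libraries, HBOT replicate 2 by the most (HBOT against CTX 0.78, SE 0.23, limma adjusted p = 0.710; CTX against NC -0.28, SE 0.23). Col15a1 had the lowest log2 fold change of any chain in CTX against NC (-0.87, SE 0.39, limma adjusted p = 0.629), at 23.8, 8.30 and 17.7 FPKM in HBOT, 8.93, 15 and 6.07 in CTX, and 14.9, 21 and 18.3 in NC. CTX replicate 2 lay just above NC replicate 1 for Col15a1, and HBOT replicate 2 was below CTX replicates 1 and 2.

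**Figure D3:**
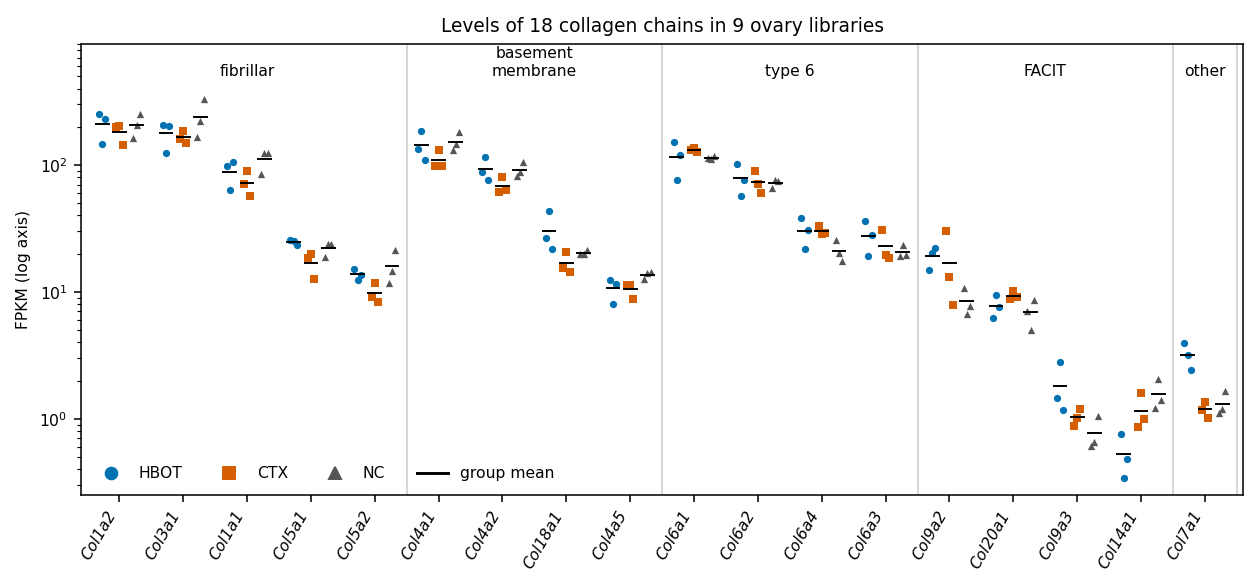
FPKM (log axis) of the 18 named chains by class in the HBOT, CTX and NC libraries (points, 3 per group) with group means (lines). Col7a1 HBOT libraries (2.40 to 3.96 FPKM) lie above the others, Col4a1 and Col4a2 CTX libraries lie below NC, and Col6a1 and Col6a4 CTX libraries lie above NC.

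Of the type VI chains 5 of 6 had higher values in CTX than in NC, against 59.5% of all genes. For Col6a2 and Col6a6 (0.011, SE 0.32) the difference was near 0, and Col6a3 turned to -0.12 without CTX replicate 1. Col6a1, the α1 chain, was at 152, 76.4 and 121 FPKM in HBOT, 130.0, 137 and 126 in CTX, and 114, 112 and 117 in NC. CTX lay wholly above NC for Col6a1 with little spread in either group, while HBOT held both the highest and the lowest library (CTX against NC 0.19, SE 0.21, limma adjusted p = 0.907; HBOT against CTX -0.22, SE 0.21). Col6a2 was at 102, 56.5 and 76.5 FPKM in HBOT, 89.7, 70.8 and 59.7 in CTX, and 65.4, 75.5 and 74.1 in NC (CTX against NC 0.016, SE 0.22, below 0 with TPM, median-of-ratios or quantile scaling; HBOT against CTX 0.073, SE 0.22). Col6a3, the longest of the main chains, was at 36.2, 19.1 and 27.9 FPKM in HBOT, 30.6, 19.6 and 18.3 in CTX, and 19.1, 23.5 and 19.5 in NC. HBOT replicate 1 and CTX replicate 1 were the highest for Col6a3, with the other libraries within 18.3 to 27.9 FPKM (CTX against NC 0.11, SE 0.25; HBOT against CTX 0.26, SE 0.25).

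The 3 chains Col6a4, Col6a5 and Col6a6 lie next to each other in the genome and ordered the groups differently. Col6a4 was at 38.5, 21.9 and 30.8 FPKM in HBOT, 33.2, 28.3 and 29.3 in CTX, and 25.4, 20.2 and 17.4 in NC. All CTX libraries were above all NC libraries for Col6a4, whose p was the smallest for a chain with higher CTX values (0.52, SE 0.21, limma adjusted p = 0.595), and HBOT was close to CTX (-0.025, SE 0.21, above 0 with median-of-ratios or quantile scaling). Col6a5 was lower in every CTX library than in any NC library, at 8.05, 2.15 and 4.04 FPKM in HBOT, 1.88, 2.57 and 2.28 in CTX, and 3.71, 3.17 and 4.16 in NC (CTX against NC -0.53, SE 0.33, limma adjusted p = 0.780). Col6a6 averaged 2.71 ± 2.01 FPKM in HBOT, 2.11 ± 0.301 in CTX and 2.09 ± 0.2 in NC (SD, n = 3 each).

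FACIT chains held the highest fold change of HBOT against NC and the lowest, that of Col14a1, which passed the filter through NC. Col9a2, a type IX chain that coats fibrils in cartilage, was at 14.8, 20.4 and 22 FPKM in HBOT, 29.9, 13.2 and 7.88 in CTX, and 10.8, 6.72 and 7.80 in NC. HBOT lay above NC (1.09, SE 0.40, limma adjusted p = 0.374), and CTX replicate 1 was the highest library while CTX replicate 3 was within NC (CTX against NC 0.76, SE 0.40, limma adjusted p = 0.710; 0.27 without CTX replicate 1 and 1.17 without CTX replicate 3). Col9a3, another type IX chain, was at 1.45, 2.78 and 1.18 FPKM in HBOT, 0.87, 1.02 and 1.2 in CTX, and 0.614, 0.655 and 1.05 in NC. HBOT was above NC for Col9a3, with HBOT replicate 2 the highest (0.63, SE 0.22, limma adjusted p = 0.364), while the third type IX chain, Col9a1, was at 0 in 7 libraries and at most 0.0189 FPKM.

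Col14a1, a fibril-surface collagen of soft connective tissue, was at 0.763, 0.339 and 0.483 FPKM in HBOT, 0.858, 1.6 and 0.990 in CTX, and 1.22, 2.07 and 1.41 in NC. It was the one chain for which HBOT lay below both CTX and NC in all libraries (HBOT against NC -0.74, SE 0.20, limma adjusted p = 0.291, and HBOT against CTX -0.49, SE 0.20, limma adjusted p = 0.710). Col14a1 reached 1 FPKM in the 3 NC libraries and CTX replicate 2 only. It was thus tested because NC was high, and its lower HBOT values are a description. Col20a1 was at 6.19, 9.43 and 7.62 FPKM in HBOT, 8.71, 10.2 and 9.02 in CTX, and 7.04, 4.98 and 8.65 in NC. CTX and NC did not overlap for Col20a1, but by a margin smaller than the spread within either group (CTX against NC 0.41, SE 0.20, limma adjusted p = 0.684; HBOT against CTX -0.25, SE 0.20). Col12a1 and Col16a1, other fibril-associated chains, averaged 9.77 and 18.9 FPKM in HBOT, 8.04 and 19.3 in CTX, and 7.96 and 20.2 in NC, with overlapping groups.

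Among the other collagens, Col7a1, which builds the fibrils that anchor epithelial basement membranes, was at 3.96, 3.16 and 2.40 FPKM in HBOT, 1.18, 1.36 and 1.01 in CTX, and 1.1, 1.2 and 1.65 in NC. Every HBOT library lay above every CTX and NC library, and HBOT replicate 2 was the middle one. The log2 fold change was 0.92 against CTX (SE 0.18, limma adjusted p = 0.667) and 0.84 against NC (SE 0.18, limma adjusted p = 0.241), not called in either. With a weight estimated for each library limma called Col7a1 against NC (0.96, adjusted p = 0.0407). That setting called 1 of 36 chains and 181 of 13338 genes in this comparison. Col8a1, Col8a2, Col13a1, Col23a1 and Col26a1 had overlapping groups in all 3 comparisons, with log2 fold changes between -0.44 and 0.23 in CTX against NC. The lowest of these belonged to Col8a1, a network-forming chain of blood vessels (1.13 ± 0.358 FPKM in HBOT, 0.900 ± 0.313 in CTX and 1.58 ± 0.478 in NC; SD, n = 3 each; limma adjusted p = 0.662).

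Pairs of chains, some of one trimer and others of different collagen types, were set against each other within a library, which removes any scaling between libraries. Type I collagen protein needs its α1 chain in excess of α2. Col1a1 FPKM was below that of Col1a2 in all libraries, with ratios of 0.384, 0.431 and 0.458 in HBOT, 0.354, 0.446 and 0.398 in CTX, and 0.520, 0.602 and 0.493 in NC. A ratio of FPKM is not one of protein chains, and any bias between the 2 genes stays in it. All HBOT and CTX ratios lay below all NC ratios, with the same 3 NC libraries in both comparisons. The exact permutation p was 0.1 for either, two-sided, the smallest that 3 against 3 libraries allow. Any ratio without overlap gives that p, so it adds nothing to the lack of overlap. Between collagen types, the ratio of Col3a1 to Col6a1 was 1.36, 1.64 and 1.67 in HBOT, 1.22, 1.35 and 1.19 in CTX, and 1.46, 1.98 and 2.82 in NC. CTX was thus below both other groups for that ratio without overlap, and for the ratio of Col4a1 to Col6a1 it was below NC, at 0.752, 0.951 and 0.775 in CTX and 1.16, 1.3 and 1.53 in NC. Of the 15 ratios computed, 1 was higher and 3 lower in CTX than in NC without overlap, 2 higher and 0 lower in HBOT than in CTX, and 3 higher and 3 lower in HBOT than in NC. The ratios reuse chains, Col6a1 among them, so they are not separate observations. No share over other gene pairs was computed, so the counts are a description.

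**Figure D4:**
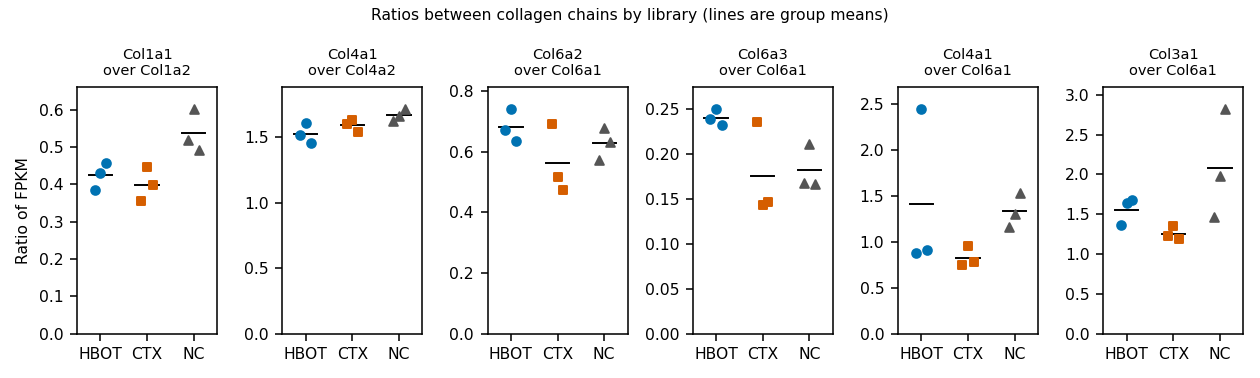
Ratio of FPKM between 2 chains (y axes, from 0) in each HBOT, CTX and NC library (points), with group means (lines). Col1a1 over Col1a2 is below 0.46 in all HBOT and CTX libraries and at 0.493 or more in NC, and Col4a1 over Col6a1 reaches 2.44 in HBOT replicate 2.

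Single libraries set many of the extremes. Of the 36 tested chains CTX replicate 3 held the lowest value for 14 and HBOT replicate 2 for 12, and HBOT replicate 1 the highest for 13. In HBOT replicate 2, 13 chains lay more than 0.5 log2 units below the mean of the other libraries and 6 above. The summed FPKM of 9 fibroblast and stroma markers was 231 to 385 in HBOT (lowest in replicate 2), 249 to 329 in CTX and 337 to 381 in NC, and that of 6 pericyte markers 55.1 to 74.7, 49.5 to 52.7 and 61.0 to 67.3 in the same groups. Of these lists 7 of 8 and 6 of 6 tested markers were lower in CTX than in NC, against 40.5% of all genes, and 0 were called. Their part in the collagen values was not tested.

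Markers of other cell types were summed in the same way. Summed smooth muscle markers were at 384 to 543 FPKM in HBOT, 326 to 407 in CTX and 309 to 410.1 in NC, endothelial markers at 104 to 125, 114 to 138 and 113 to 126, and surface epithelium markers at 33.7 to 74.6, 39.8 to 89.7 and 46.7 to 72.7. Oocyte markers were at 267 to 305 FPKM in HBOT, 178 to 279.8 in CTX and 115 to 165 in NC, granulosa cell markers at 1817 to 2322, 1512 to 2529 and 1410.3 to 2061, theca and steroid-secreting cell markers at 5501 to 7070.3, 4752 to 9622 and 6814 to 9633, and leukocyte markers at 60.1 to 109, 69.6 to 96.9 and 44.7 to 59.8. Adipocyte markers reached 88.1 FPKM in CTX replicate 1, the library with the highest Col9a2, against 9.1 to 22 in the other libraries, and Lep stayed under 1 FPKM throughout. The next highest Col9a2 values were in HBOT replicates 3 and 2, with adipocyte sums of 18.7 and 14.6 FPKM. CTX replicate 1 also had the highest granulosa cell sum, 2529 FPKM. Summed oviduct epithelium markers were at 11.9 to 23.4 FPKM in HBOT, 11.4 to 33.7 in CTX and 9.19 to 19 in NC. Of their 5 members Pax8, Foxj1 and Sntn stayed under 1 FPKM throughout, while Tppp3 was at 31 FPKM in CTX replicate 1, with all CTX libraries above all NC libraries, and Ovgp1 at 10.1 FPKM in NC replicate 3. In CTX against NC 7 of 7 tested oocyte markers and 6 of 6 leukocyte markers were higher, against 59.5% of all genes. So were 6 of 8 granulosa cell, 6 of 8 surface epithelium, 5 of 7 smooth muscle and 2 of 2 adipocyte markers. Higher too were 3 of 7 endothelial, 2 of 6 theca and 1 of 2 oviduct markers, and 0 in these lists were called. The part of these cells was not tested.

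Genes that make, bind and degrade collagen were read from the same fit, and 0 of them were called in any comparison. Over all genes 40.5% were lower in CTX than in NC (median 0.046) and 38.4% higher in HBOT than in CTX (median -0.067). For folding, hydroxylation and secretion 12 of 18 tested genes were lower in CTX than in NC (median -0.0996) and 12 of 18 higher in HBOT than in CTX (median 0.038). Creb3l1, a transcription factor of the endoplasmic reticulum that activates procollagen genes, had the smallest p of that list in both, at 28, 32.5 and 34.2 FPKM in HBOT, 17.6, 23.3 and 16.4 in CTX, and 25.8, 25.1 and 27.9 in NC. HBOT lay above CTX and CTX below NC for Creb3l1 without overlap (HBOT against CTX 0.71, SE 0.14, limma adjusted p = 0.710; CTX against NC -0.46, SE 0.14, limma adjusted p = 0.452). P3h2, a prolyl hydroxylase, averaged 11.1 ± 2.65 FPKM in HBOT, 9.21 ± 2.89 in CTX and 14.4 ± 0.515 in NC, and P3h4, of the same family, 35.3 ± 8.12, 52.1 ± 13.1 and 57.0 ± 2.72 in the same groups (SD, n = 3 each).

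For procollagen processing and crosslinking 6 of 10 were lower in CTX than in NC (median -0.22) and 6 of 10 higher in HBOT than in CTX (median 0.11). The crosslinking oxidase Loxl2 was at 36.4, 36.0 and 26.9 FPKM in HBOT against 16.6, 22.8 and 17.9 in CTX, and Loxl1 averaged 12.9 ± 2.33 in CTX and 19.1 ± 2.83 in NC, while Pcolce, an enhancer of procollagen cleavage, averaged 161 ± 55.2 in HBOT and 264 ± 95.6 in CTX (SD, n = 3 each). Of 12 small proteoglycans and glycoproteins of fibrils 11 were lower in CTX than in NC (median -0.31), led by biglycan (Bgn, 125 ± 26.3 FPKM in CTX and 213 ± 25.9 in NC), and 7 of 12 were higher in HBOT than in CTX (median 0.15), led by fibronectin (Fn1, 32.3 ± 8.03 in HBOT and 19.4 ± 2.26 in CTX) and periostin (Postn, 4.94 ± 2.49 and 2.31 ± 0.648 in those groups). Laminins and other basement membrane partners had 8 of 14 lower in CTX than in NC (median -0.11), against 40.5% of all genes. In HBOT against CTX 8 of 14 were lower (median -0.064), near the values over all genes (61.6% lower, median -0.067). Perlecan (Hspg2) averaged 37.1 ± 9.13 FPKM in CTX and 47.7 ± 0.946 in NC, Sparc, a collagen-binding glycoprotein, 633 ± 189 and 809 ± 71.2 in those groups, and the laminin chain Lamc3 8.93 ± 3.4 in HBOT and 19.8 ± 9.44 in CTX. Another laminin chain, Lama5, averaged 3.66 ± 1.24 FPKM in HBOT and 4.55 ± 0.53 in CTX (SD, n = 3 each).

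Collagen receptors were divided, with 6 of 11 lower in CTX than in NC (median -0.0081) and 6 of 11 higher in HBOT than in CTX (median 0.15). Lair1, an inhibitory collagen receptor of immune cells, was at 0.824, 0.916 and 0.765 FPKM in HBOT, 1.68, 1.69 and 1.68 in CTX, and 0.468, 0.949 and 0.290 in NC. Lair1 was under 1 FPKM in every HBOT and NC library and passed the filter through CTX alone, so its higher CTX values are a description. The integrin chain Itgb1 averaged 114 ± 9.32 FPKM in CTX and 139 ± 4.65 in NC. Itga11, a fibrillar collagen receptor chain, averaged 2.57 ± 1.13 FPKM in HBOT and 4.12 ± 0.347 in CTX (SD, n = 3 each). Of 10 tested collagen-degrading enzymes and inhibitors 9 were lower in CTX than in NC (median -0.52) and 7 of 10 higher in HBOT than in CTX (median 0.27). Mmp14, a membrane collagenase, was at 77.4, 49.9 and 64.1 FPKM in HBOT, 47.3, 45.9 and 35.7 in CTX, and 52.8, 73.4 and 64.7 in NC, with all CTX libraries below both other groups. The inhibitor Timp1 had the smallest p of its list in both comparisons, at 186 ± 25.7 FPKM in HBOT, 47.6 ± 21 in CTX and 151 ± 66.8 in NC, and Timp4 averaged 0.185 ± 0.166, 0.514 ± 0.575 and 1.63 ± 0.244 in the same groups (SD, n = 3 each). Timp4 reached 1 FPKM in the 3 NC libraries and CTX replicate 2 only, and so was tested because NC was high.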

How the data were processed

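Ovary RNA was selected for poly(A) with oligo(dT) beads and read in pairs, per the labels' protocols. fastp 0.23.4 was used with genome build GRCm39, per the submitters' processing notes, while aligner, counter, annotation and strand setting are not named there. FPKM were deposited by the authors for 22544 rows, 747 of them assembled loci. Reads could not be recovered from FPKM, so depth is unknown and precision is known only from the 3 libraries of a group. Every column was matched to a sample.

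FPKM + 1 was put on the log2 scale with no other normalization. Genes reaching 1 FPKM in 3 or more libraries entered 1 limma 3.58.1 model of the 3 groups (R 4.3.3, eBayes with trend, Benjamini-Hochberg over 13338 genes), tested on simulated data. The replicate numbers were not used as a block. Named are the chains of each class with a mean of at least 20 FPKM and, per comparison, the 3 with the smallest p in each direction. Of each partner list the 2 genes with the smallest p in CTX against NC and in HBOT against CTX are named. Col15a1 and Col6a5 were chosen for values by library after these were seen. Members, classes and gene lists were chosen with earlier results of these data known. In all 19 alternatives were tried. Col4a1 and Col4a2, and Col4a3 and Col4a4, lie head to head, so reads at their starts cannot be divided without strand. Col4a5 and Col4a6 also lie head to head, with windows that do not overlap. Promoters were matched by symbol to RefSeq on GRCm38.p6, another build than the files'. Figures used matplotlib 3.10.9 in Python 3.11.15.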

Additional observations from a re-analysis of the deposited data

How the results depend on the processing

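No collagen chain was called in any comparison under any of 19 alternatives, except Col7a1 in HBOT against NC with library weights (1 chain, log2 fold change 0.96, limma adjusted p = 0.0407). That setting called 181 of 13338 genes in the same comparison. The median over all tested chains moved by less than the spread between replicates in every alternative; with 1 library left out it ran from -0.15 to 0.018 in CTX against NC, from 0.033 to 0.28 in HBOT against CTX and from -0.12 to 0.23 in HBOT against NC. Over all genes the count called in CTX against NC, 0 in the fit reported, was 31 with the 2 groups only, 123 with library weights, 16 with HBOT 2 and CTX 1 left out together, and 0 to 9 with 1 library left out (8 without HBOT replicate 2, 9 without HBOT replicate 3, 1 without NC replicate 1). In HBOT against CTX it was 1 without a filter, 5 with library weights, 2 with both libraries left out and 0 to 1 with 1 left out (CTX replicate 1, CTX replicate 2 or NC replicate 3). In HBOT against NC it was 1 without a filter, 181 with library weights, 3 with both left out and 0 to 3 with 1 left out (3 without HBOT replicate 3, 1 without NC replicate 1 or NC replicate 3). The cause of these differences was not tested. With replicate number as a block 0 genes and 0 chains were called in each comparison. Deviations from the group mean correlated at -0.287 to 0.156 over 9 pairs of libraries with the same number. Over 18 pairs with other numbers they correlated at -0.299 to 0.409. Such correlations cannot decide whether the numbers pair the libraries.

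Fold changes near 0 turned. Col6a2 in CTX against NC was at -0.021 with TPM, -0.041 with median-of-ratios and -0.0096 with quantile scaling, -0.012 with library weights and -0.14 with both libraries left out (-0.14 to 0.15 with 1 left out), and Col6a3 at -0.12 with both left out (-0.12 to 0.24 with 1 left out). In HBOT against CTX, Col6a1 was at 0.059 with library weights and 0.045 with both left out (-0.44 to 0.050 with 1 left out), and Col6a4 at 0.044 with median-of-ratios and 0.034 with quantile scaling, 0.25 with library weights and 0.25 with both left out (-0.21 to 0.18 with 1 left out). With 1 library left out Col3a1 ran from -0.044 to 0.32 and Col6a2 from -0.14 to 0.28. Chains at an unadjusted p under 0.05 in CTX against NC (1 higher, 4 lower) numbered 0 to 2 and 0 to 8 with 1 library left out, 0 lower without CTX replicate 3 or NC replicate 3; 7 were lower with TPM or median-of-ratios scaling, the 2 groups only or library weights, and 8 with quantile scaling. In HBOT against CTX (4 and 1) they numbered 3 to 6 and 0 to 2 with 1 left out, and 7 higher with median-of-ratios or quantile scaling, 9 with library weights and 10 with both left out. In HBOT against NC (4 and 1) they numbered 1 to 5 and 1 to 2 with 1 left out, and 13 higher with library weights, 6 with both left out and 2 with a filter of 5 FPKM. Chains with ranges that do not overlap were also counted without HBOT replicate 2 or CTX replicate 1, chosen after seeing the data. HBOT replicate 2 was low for many of these chains, so leaving it out favours chains above CTX and NC. In HBOT against CTX without HBOT replicate 2, 13 were higher (37.1%, against 9.14% of all genes) and 2 lower (5.71%, against 9.6%). Without CTX replicate 1, 6 were higher there (16.7%, against 10%) and 1 lower (2.78%, against 13.9%). In HBOT against NC without HBOT replicate 2, 13 were higher (37.1%, against 23.5%) and 2 lower (5.71%, against 13.2%). In CTX against NC without CTX replicate 1, 4 were higher (11.1%, against 17.5%) and 6 lower (16.7%, against 12.5%). The fibrillar median of HBOT against CTX, 0.25, was 0.50 without HBOT replicate 2 and 0.13 without HBOT replicate 3. With 1 library left out the type VI, FACIT and other medians ran from -0.17 to 0.37, -0.13 to 0.21 and -0.022 to 0.27 in HBOT against CTX, and from -0.018 to 0.19, -0.013 to 0.24 and -0.12 to 0.080 in CTX against NC. The FACIT median of HBOT against CTX was -0.015 without a filter. Unknown depth limits what can be said of the low chains.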
